A study of Mus musculus with 12 samples.

Results

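The transcripts of the nuclear genes for the subunits of oxidative phosphorylation were examined in mouse peritoneal macrophages. Members were chosen by name alone, as genes whose symbol begins with Ndufa, Ndufb, Ndufc, Ndufs or Ndufv and a digit (complex I), is Sdha, Sdhb, Sdhc or Sdhd (complex II), or begins with Uqcr (complex III), with Cox and a digit from 4 to 8 (complex IV) or with Atp5 (complex V). Assembly factors named Ndufaf and pseudogene symbols were left out. The rule took 84 of the 16920 genes in the deposited tables, 39 for complex I, 4 for complex II, 8 for complex III, 16 for complex IV and 17 for complex V. No measured value enters this rule. The study compared macrophages of WT mice with macrophages of Ythdf1-/- mice, which lack a reader of the RNA mark m6A. Cells were cultured overnight and given PBS or 1 µg/mL lipopolysaccharide (LPS), the cell wall component of Gram-negative bacteria that activates macrophages, for 6 h. Each of the 4 groups (WT PBS, WT LPS, KO PBS, KO LPS) had 3 libraries, which the labels call independent biological replicates and the series record triplicates. The number of mice behind each is not given, so that p-values measure the spread between these libraries, part of which may be technical. All mice had received an intraperitoneal irritant to draw cells into the peritoneum, starch broth per the series record and thioglycollate per the paper's methods. The labels give no age or sex.

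Oxidative phosphorylation is carried out by 5 protein complexes of the inner mitochondrial membrane. Complex I takes electrons from NADH, and complex II, which is also the succinate dehydrogenase of the citric acid cycle, takes them from succinate. Complex III passes them to cytochrome c and complex IV to oxygen, while complex V, the ATP synthase, makes ATP from the proton gradient that complexes I, III and IV build. Macrophages that meet LPS are known to shift from oxidative phosphorylation towards glycolysis and to accumulate succinate. A few subunits of complexes I, III, IV and V are made from mitochondrial DNA and were not analysed here.

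Total counts were between 21546274 and 22017005 per library. Of the 84 members, 80 passed the filter on low counts and were tested among 12064 genes. The other members, Cox4i2, Cox8b, Ndufa11b and Ndufa4l2, had at most 3 counts in any library, which is at or under the floor used here. Counts that carry decimals, where reads were divided between similar genes, occurred for 15 members in at least 1 library and for 2 members in all 12. The pairs Ndufb4 with Ndufb4c and Ndufa11 with Ndufa11b share reads and their separate values are uncertain. The macrophage markers Adgre1, Cd68, Csf1r, Lyz2, Itgam, Mrc1, Fcgr1 and Mertk together held 17390.0 to 19400.0 CPM in every library (CPM, counts relative to a library size scaled by the trimmed mean of M values, TMM). The skeletal muscle list is taken up with Cox6a2 below. Markers of B cells (at most 1.92 CPM in all), T cells (0.665), neutrophils (21.1) and mesothelium (4.42) summed to low levels in every library. The targeted gene was not lost in the libraries labelled knockout. Ythdf1 had 1206, 1257 and 1172 counts in WT PBS libraries and 1584, 1655 and 1640 in KO-labelled PBS libraries, and 3668, 3476 and 3447 counts in WT LPS and 3188, 3136 and 3303 in KO-labelled LPS libraries. The gene's count covers the whole gene, and a small deletion cannot be seen in it. The genotype comparisons rest on the labels, and the libraries are called KO-labelled throughout.

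Some LPS libraries stood apart from their groups. WT LPS replicate 1 differed from replicates 2 and 3 by a mean chi-square per gene of 30.7 and 23.9, against 2.97 between replicates 2 and 3. It was the lowest of its group for 70 of the 80 members, with a median log2 difference of -0.24 from the mean of the others. In the KO LPS group, replicates 2 and 3 differed by 15.6, and each differed from replicate 1 by 7 and 5.52. Replicate 3 was the lowest of its group for 67 of 80 members, with a median of -0.22, and replicate 2 the highest for 63, with a median of 0.21, so that neither of these values singles out replicate 3. In WT LPS replicate 1 and KO LPS replicate 3 the shorter members were further down (-0.31 and -0.30, transcripts up to 758 nucleotides) than the longer ones (-0.17 and -0.18). The counts over all members below are given with and without this pair of libraries, and KO LPS replicate 2 was left out on its own as well. What sets them apart was not tested.

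How the libraries are scaled decides the direction of most LPS differences of these genes in WT, and of many under the KO label. The members held 0.593% to 0.629% of all counts in WT PBS libraries and 0.414% to 0.474% in WT LPS libraries, and 0.585% to 0.606% in KO-labelled PBS and 0.343% to 0.401% in KO-labelled LPS libraries. TMM scaling sets the typical gene near 0, whereas scaling by library totals alone moves the log2 fold change of the median gene by -0.66 for LPS in WT and by -0.80 for LPS in KO-labelled cells. Log2 fold changes below are relative to the typical gene (TMM). With totals alone every tested member had a negative log2 fold change for LPS under both labels, so that each rise named below is a rise relative to the typical gene. Bulk RNA cannot tell less RNA per cell from fewer cells that carry it, and these files hold no measure of RNA per cell. The order of the members and complexes among themselves does not depend on the scaling, since a scaling moves all genes of a library alike.

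In resting WT macrophages the subunit transcripts spanned a wide range of levels, given here per length as mean CPM per kilobase of transcript. The most abundant were Atp5b, the catalytic beta subunit of ATP synthase, at 261, Cox6a1 at 236, Cox4i1 at 214 and Cox8a at 204, the last 3 being the broadly expressed isoforms of small complex IV subunits. By complex, the median member was at 33.8 CPM per kilobase for complex I, 46.5 for complex II, 61.9 for complex III, 66.8 for complex IV and 92.0 for complex V. Apart from the coupling factor Atp5s at 1.42, the lowest of the broadly expressed subunits were Ndufa5 (17.7), Ndufs1 (14.9), the largest iron-sulfur subunit of complex I, and Ndufs4 (11.3), an accessory subunit needed for a stable complex I. The muscle and heart isoforms were far below these, with Cox6a2 at 1.99, Cox7a1 at 1.43 and Cox6b2, a testis isoform, at 0.534 CPM per kilobase. Complex V transcripts made up 40.4% of all subunit counts and complex I, with its 39 genes, 24.1%.

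To ask what LPS did to these transcripts in WT macrophages, the WT LPS libraries were compared with the WT PBS libraries. Relative to the typical gene, the subunits of complexes III, IV and V tended upwards, complex II did not, and complex I was split under TMM. In the edgeR quasi-likelihood test with Benjamini-Hochberg adjustment over all genes, 31 of 80 members (38.8%) were higher with LPS, against 36.5% of all genes tested, and 9 (11.2%) were lower, against 40.2% of all genes. The median log2 fold change was 0.16 over the members and -0.05 over all genes. In the same contrast 4 of 8 macrophage markers were higher and 2 lower, and both tested neutrophil markers were higher (summed CPM 5.42 to 6.62 with PBS and 11.4 to 13.9 with LPS). Also lower were 1 of 12 skeletal muscle markers and the 1 tested marker each of B cells and T cells. Their part in the result was not tested. By complex, 6 of 8 members of complex III were called higher (median 0.26), 9 of 14 of complex IV (0.35), 8 of 17 of complex V (0.21) and 8 of 37 of complex I (0.06). Lower calls were made for 5 members of complex I, 2 of the 4 of complex II (median -0.15), and 1 each of complexes IV and V. The share of higher members was close to the background, while the share of lower members was below it. With totals alone, no member was called higher and 71 were called lower, against 18.4% and 68.4% of all genes, and no member reached an unadjusted edgeR p under 0.05 in the higher direction. Upper-quartile scaling gave 5 higher and 30 lower (background 26.1% and 54.0%), and a correction for GC content gave 42 and 5 (41.7% and 36.5%). In the corrected fit complex I had 15 higher and 3 lower (median 0.22) and complex II 1 higher and none lower (median -0.01). Without the pair of libraries that stood apart, 16 of the 37 complex I members were higher in place of 8. Over all members, 44 of 80 were higher and 9 lower (36.8% and 40.3% of all genes), so that the share of higher members was above the background. Without WT LPS replicate 3 alone, 20 of 80 were higher, a share below the 34.9% of all genes in that fit. The side of the background thus depended on the libraries kept.

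**Figure D1:**
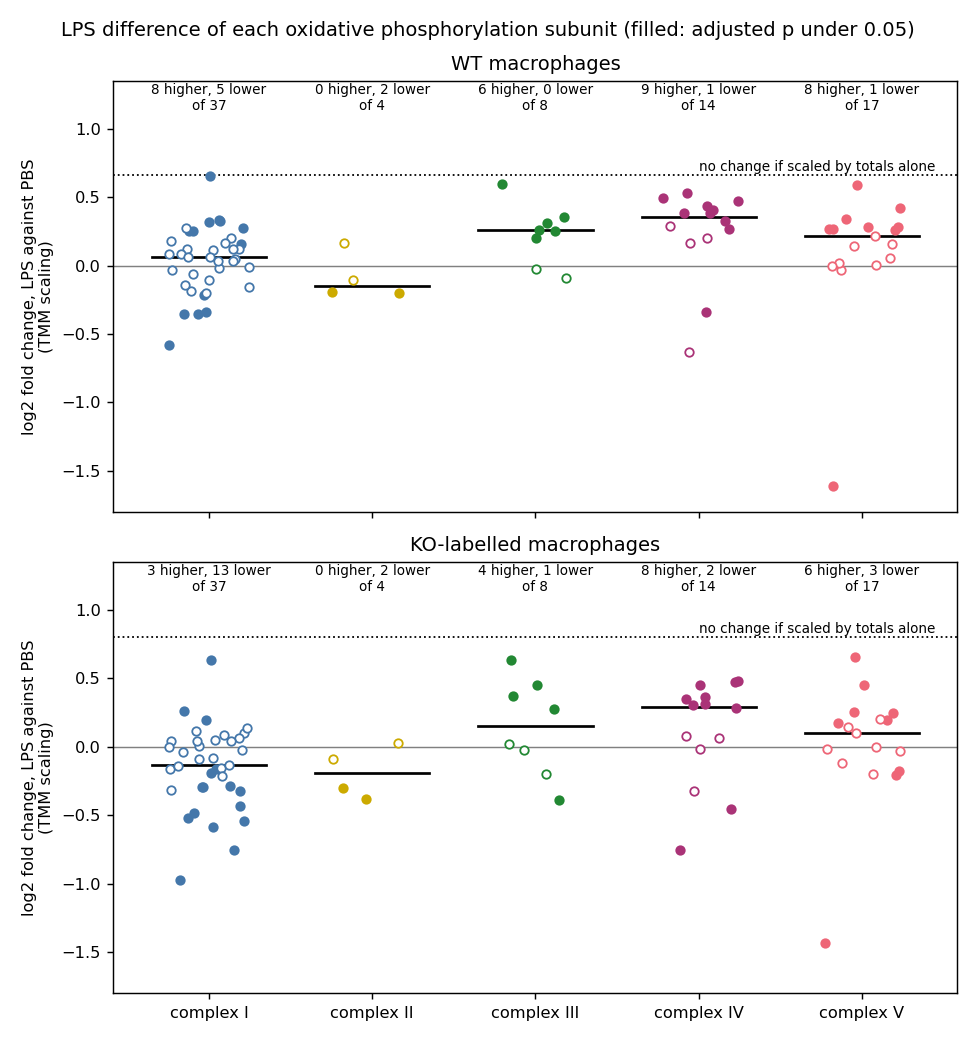
Log2 fold change of LPS against PBS (y axis, TMM scaling) for the 80 tested members, grouped by complex on the x axis, in WT (top) and KO-labelled macrophages (bottom). Each point is a gene, filled where the adjusted p is under 0.05, black bars are medians, and the dotted line marks where a gene would show no change if libraries were scaled by totals alone, so that every point lies at or below no change under that scaling. The complex IV medians are 0.35 and 0.29, and the complex I medians are 0.06 and -0.13.

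Among the subunits of complex I, the response ran in both directions. Ndufs4 (gene 17993, chr13:114287795-114388094, GRCm38.p6) was at 18.8, 19.96 and 18.7 CPM in WT PBS libraries and at 24.5, 33.5 and 32.3 CPM in WT LPS libraries. All LPS libraries were higher than all PBS libraries (log2 fold change 0.65 ± 0.12 (SE), adjusted p = 9.18e-05, -0.01 with totals alone). Ndufs7 (gene 75406, chr10:80249105-80256794), the subunit that holds the iron-sulfur cluster next to ubiquinone, was at 27.4, 29.7 and 28.6 CPM with PBS and 18.2, 19.1 and 20.1 CPM with LPS. It went the opposite way with no overlap (log2 fold change -0.58 ± 0.08 (SE), adjusted p = 3.03e-06, -1.24 with totals alone), so that the ratio of Ndufs4 to Ndufs7 counts, which no scaling can alter, went from 0.670 ± 0.0160 (SD, n = 3) to 1.57 ± 0.206. This pair was chosen after its values were seen. The ratio is not corrected for GC content, which is 43.05% for the Ndufs4 transcript and 60.69% for that of Ndufs7. The other complex I members that fell were Ndufv3 (-0.35 ± 0.0814 SE), an accessory subunit of the NADH-binding module, Ndufs8 (-0.36 ± 0.0828) and Ndufs1 (-0.34 ± 0.0668), which both carry iron-sulfur clusters, and Ndufb10 (-0.22 ± 0.0678) of the membrane arm. Their adjusted p were 0.000864, 0.000923, 0.000212 and 0.00848 in edgeR. With the GC correction, Ndufs1 (-0.32) and Ndufs7 (-0.27, adjusted p = 0.00625) stayed lower, whereas Ndufv3 (-0.18), Ndufs8 (-0.17) and Ndufb10 (-0.05) did not pass (adjusted p = 0.0708, 0.069 and 0.458). Among the 5, Ndufs1 had 42.6, 39.4 and 36.9 CPM with PBS and 30.8, 32.4 and 30.8 CPM with LPS, without overlap. The core subunit Ndufs3 rose by 0.33 relative to the typical gene, and was at -0.33 with totals alone.

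In complex II the subunits of the catalytic head were called lower under TMM, and the membrane anchors did not pass the test. These calls depended on the GC correction. Sdha (gene 66945, chr13:74322255-74350240), the flavoprotein that oxidises succinate, was at 143, 145 and 139 CPM in WT PBS libraries and at 127, 118 and 129 CPM in WT LPS libraries (log2 fold change -0.19 ± 0.05 (SE), adjusted p = 0.00336). Sdhb, the iron-sulfur subunit bound to it, was at 74.5, 81.7 and 76.7 and 63.3, 68.3 and 71.5 CPM (log2 fold change -0.20 ± 0.07 (SE), adjusted p = 0.0228). Neither overlapped between the groups, and with totals alone they were at -0.86 and -0.86. The membrane anchors overlapped between PBS and LPS. Sdhc was at 0.16 ± 0.0742 (adjusted p = 0.0566 in edgeR) and Sdhd at -0.10 ± 0.0768 (adjusted p = 0.231). After correction for GC content Sdha (-0.09, adjusted p = 0.0858) and Sdhb (-0.03, adjusted p = 0.698) did not pass, and Sdhc was called higher (0.27, adjusted p = 0.00345).

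In complex III, the Rieske iron-sulfur protein Uqcrfs1 (gene 66694, chr13:30540312-30545316) rose the most. It was at 37.9, 42.5 and 42.2 CPM with PBS and at 54.3, 66.5 and 64.5 CPM with LPS, without overlap (log2 fold change 0.60 ± 0.08 (SE), adjusted p = 3.4e-06, -0.07 with totals alone). The core proteins Uqcrc1 (0.31 ± 0.0683) and Uqcrc2 (0.26 ± 0.0788) and the small subunits Uqcrb (0.36 ± 0.139), Uqcrh (0.26 ± 0.113) and Uqcrq (0.20 ± 0.0736) were also called higher, with adjusted p from 0.00059 to 0.0471. With totals alone these 5 lay between -0.46 and -0.30. The libraries overlapped for Uqcrb and Uqcrh. The small subunits Uqcr10 (-0.09 ± 0.112, adjusted p = 0.468) and Uqcr11 (-0.03 ± 0.0991, adjusted p = 0.825) did not pass the edgeR test.

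In complex IV, 9 of the 14 tested members rose relative to the typical gene, and the exception on the lower side was Cox7a2l, a factor that joins complexes III and IV into supercomplexes. Cox5a (gene 12858, chr9:57517328-57532427) was at 70.4, 76.3 and 70.6 CPM with PBS and 99.3, 107 and 108 CPM with LPS (log2 fold change 0.53 ± 0.06 (SE), adjusted p = 3.5e-07, -0.13 with totals alone). Cox7a2l was at 66.5, 72.9 and 64.7 CPM with PBS and 48.4, 60.9 and 52.3 CPM with LPS (log2 fold change -0.34 ± 0.09 (SE), adjusted p = 0.00184, -1.0 with totals alone). Neither gene overlapped between the groups, and the ratio of Cox5a to Cox7a2l, chosen after its values were seen, went from 1.07 ± 0.0229 (SD, n = 3) to 1.96 ± 0.177. The broadly expressed isoforms were all called higher under TMM, with Cox6a1 at 0.49 ± 0.0704 (adjusted p = 7.52e-06), Cox7a2 at 0.47 ± 0.0895 (0.000141), Cox8a at 0.40 ± 0.0792 (0.000204), Cox6b1 at 0.39 ± 0.108 (0.00427) and Cox4i1 at 0.27 ± 0.0756 (0.00399) in edgeR. With totals alone these 5 lay between -0.39 and -0.17, and upper-quartile scaling put Cox4i1 at -0.04.

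In complex V, the catalytic subunit Atp5b (gene 11947, chr10:128083307-128090388) was at 498, 498 and 505 CPM in WT PBS libraries and at 768, 736 and 753 CPM in WT LPS libraries, the most abundant member in both. The groups did not overlap (log2 fold change 0.59 ± 0.05 (SE), adjusted p = 9.43e-09, -0.07 with totals alone). Its partner in the catalytic ring, Atp5a1, rose by 0.27 ± 0.049 (adjusted p = 9.94e-05), the stalk subunit Atp5f1 by 0.42 ± 0.0802 (0.000141) and Atp5o by 0.28 ± 0.0637 (0.00067) in edgeR. These were at -0.39, -0.24 and -0.38 with totals alone. The gamma subunit Atp5c1, the rotating shaft of the same catalytic ring, was at -0.03 ± 0.0715 (adjusted p = 0.71). The lower call was the coupling factor Atp5s, which lies under the level of 5 CPM set for naming and was named after its values were seen. It had 61, 49 and 66 counts with PBS and 9, 15 and 12 counts with LPS (log2 fold change -1.61 ± 0.26 (SE), adjusted p = 2.43e-05).

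**Figure D2:**
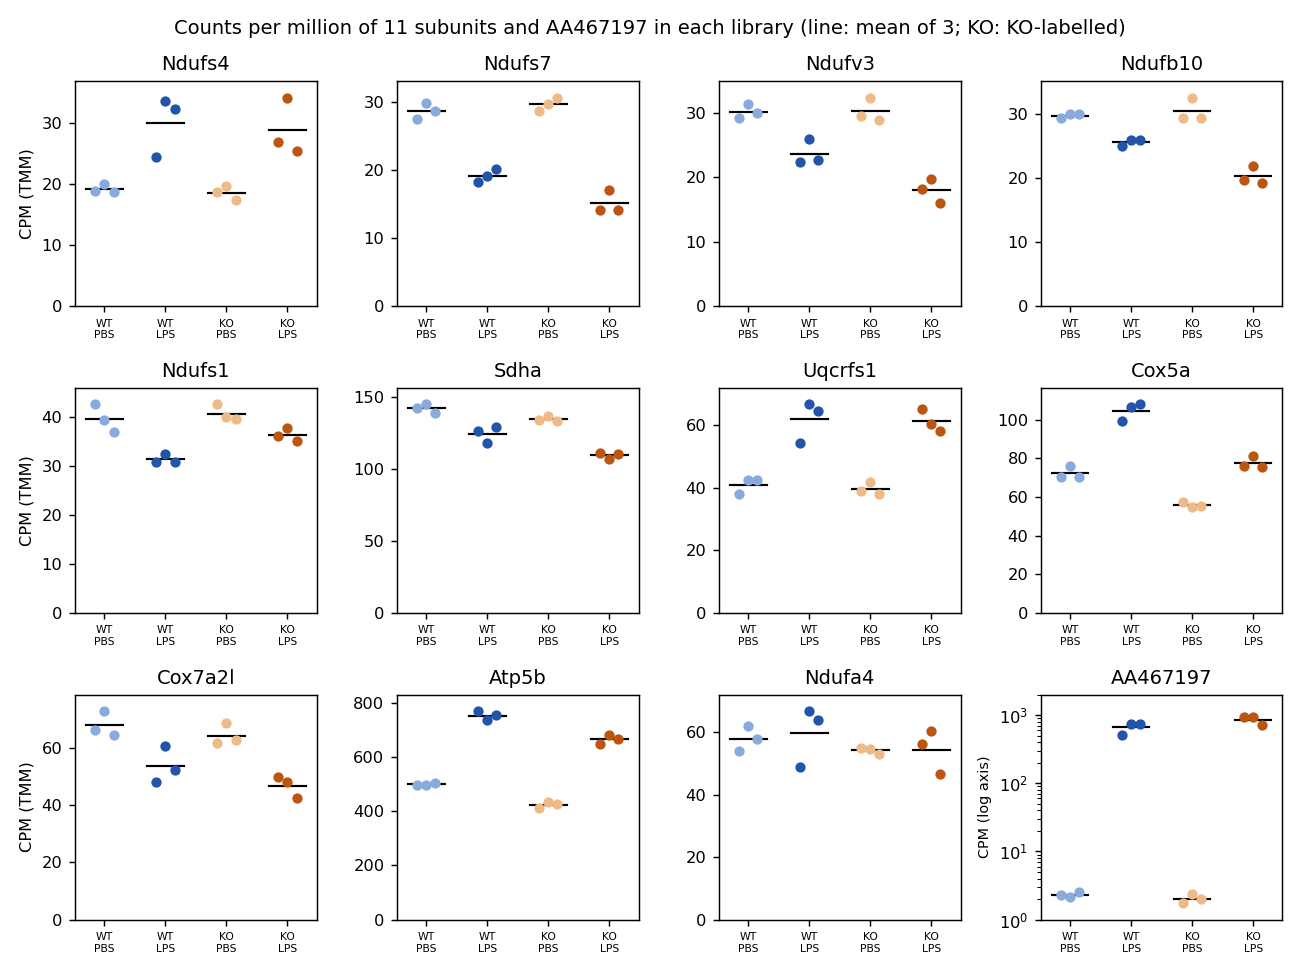
Level in CPM (y axis, TMM scaling, linear from 0 except for AA467197, which has a log axis) of 11 subunits and AA467197 in each of the 12 libraries, by group on the x axis, with lines at the means of 3. Ndufs7 and Ndufv3 step down from PBS to LPS and further in KO-labelled LPS libraries, Uqcrfs1 and Atp5b step up under TMM (with totals alone they are at -0.07 and -0.07 in WT), and Cox5a is lower in KO-labelled than in WT libraries with PBS and with LPS.

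The same comparison was made in the KO-labelled macrophages. There 21 of 80 members (26.2%) were higher with LPS and 21 (26.2%) lower in edgeR, against 38.8% and 41.1% of all genes tested, and both shares were below the background. The median log2 fold change was -0.01 over the members and -0.04 over all genes. In the same contrast 11 of 12 skeletal muscle markers were lower (summed CPM 5.14 to 30.1 with PBS and 1.96 to 2.61 with LPS). Both tested neutrophil markers were higher (7.16 to 7.83 and 13.4 to 21.1 CPM), as were 2 of 4 mesothelium markers (2.62 to 3.22 and 3.55 to 4.42 CPM), and of 8 macrophage markers 2 were higher and 2 lower. The 1 tested marker each of B cells and T cells was lower. Their part in the result was not tested. All 21 members called higher were among the 31 called higher in WT (67.7% of those), and all 9 called lower in WT were among the 21 called lower here (42.9%). By complex, 3 members of complex I were higher and 13 lower (median -0.13), 2 of complex II were lower and the other 2 did not pass (-0.19), 4 and 1 of complex III (0.15), 8 and 2 of complex IV (0.29) and 6 and 3 of complex V (0.10). With totals alone 77 of 80 were called lower, against 69.5% of all genes, and none higher (18.3% of all genes), nor did any reach an unadjusted p under 0.05 in the higher direction. Upper-quartile scaling gave 2 higher and 54 lower (27.7% and 54.4% of all genes) and the GC correction 30 and 12 (42.8% and 37.7%). In that corrected fit complex I had 9 higher and 9 lower, and its median was 0.12 in place of -0.13. Without the pair of libraries that stood apart, 29 were higher and 17 lower (38.9% and 40.3%).

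Among the largest rises in KO-labelled cells were Atp5b, Ndufs4, Uqcrfs1 and Cox5a, which are also among the largest in WT. Atp5b was at 412, 433 and 426 CPM with PBS and 649.5, 682 and 668 CPM with LPS (log2 fold change 0.65 ± 0.05 (SE), adjusted p = 2.11e-09, -0.15 with totals alone). Ndufs4 was at 0.64 ± 0.118 (adjusted p = 0.000116, -0.16 with totals alone), Uqcrfs1 at 0.63 ± 0.0801 (1.59e-06, -0.17), Cox6c at 0.48 ± 0.115 (0.00134, -0.32), Cox5a at 0.47 ± 0.0599 (1.55e-06, -0.33) and Uqcrb at 0.45 ± 0.138 (0.00846, -0.35) in edgeR. On the lower side, the 6 largest falls among members of at least 5 CPM were all in complex I. Ndufs7 was at 28.7, 29.6 and 30.6 CPM with PBS and 14.1, 17 and 14.1 CPM with LPS (log2 fold change -0.97 ± 0.08 (SE), adjusted p = 5.77e-09). Ndufv3 was at 29.6, 32.4 and 28.9 and 18.2, 19.7 and 16 CPM (log2 fold change -0.75 ± 0.08 (SE), adjusted p = 3.55e-07), and Ndufb10 at 29.4, 32.6 and 29.4 and 19.8, 22 and 19.2 CPM (log2 fold change -0.58 ± 0.07 (SE), adjusted p = 7.71e-07). These 3 did not overlap between PBS and LPS. They were followed by Ndufs8 (-0.55 ± 0.0854), Ndufa6 (-0.52 ± 0.113) and Ndufb11 (-0.48 ± 0.0816), accessory or iron-sulfur subunits of the same complex, with adjusted p of 1.81e-05, 0.00049 and 4.02e-05. All 6 stayed lower with the GC correction, with Ndufs7 at -0.56 (adjusted p = 1.09e-05), Ndufv3 at -0.49 (9.98e-05), Ndufb10 at -0.34 (0.00026), Ndufs8 at -0.27 (0.00723), Ndufa6 at -0.28 (0.0477) and Ndufb11 at -0.25 (0.0103). In complex II, Sdha (-0.30 ± 0.0529, adjusted p = 6.79e-05) and Sdhb (-0.38 ± 0.0749, adjusted p = 0.000185) fell under TMM. After that correction Sdha stayed lower (-0.24, adjusted p = 0.000235) and Sdhb did not pass (-0.14, adjusted p = 0.106). The anchors Sdhc (0.02 ± 0.0747, adjusted p = 0.774) and Sdhd (-0.09 ± 0.0768, adjusted p = 0.283) did not pass.

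The make-up of the subunit transcripts, which needs no scaling between libraries, shifted with LPS under both labels. Complex I held 24.1, 24.3 and 24.1% of all member counts in WT PBS libraries and 20.9, 21.7 and 21.4% in WT LPS libraries, with means of 24.1% ± 0.141 and 21.3% ± 0.402 (SD, n = 3). In KO-labelled libraries its share went from 25.2% ± 0.29 to 21% ± 0.513. Complex II went from 7.87% ± 0.101 to 6.38% ± 0.0597 in WT and from 8.11% ± 0.0775 to 6.49% ± 0.169 in KO-labelled libraries. The shares of complexes I and II were thus lower in all 3 LPS libraries than in any PBS library of the same label. Complex V went the other way, from 40.4% ± 0.452 to 42.9% ± 1.21 in WT and from 38.8% ± 0.228 to 42.5% ± 1.2 in KO-labelled libraries. In WT, Atp5b held means of 500 (PBS) and 752 (LPS) of the 1943 and 2413 CPM of complex V. All members summed to 4806 and 5635 CPM. Under the KO label Atp5b held 423.8 and 666.5 of 1757 and 2108 CPM, with 4524 and 4962 CPM over all members. Without Atp5b, the mean share of complex V did not rise under either label. Complex IV went from 18.8% ± 0.326 to 20.4% ± 0.76 and from 18.9% ± 0.217 to 20.4% ± 0.804. Complex III went from 8.77% ± 0.125 to 9.05% ± 0.0919 and from 8.95% ± 0.0342 to 9.61% ± 0.167. For these complexes as well, PBS and LPS libraries of a label did not overlap. No test was made on the shares, which sum to a fixed total, so that a rise of 1 complex lowers the others. Nor are they corrected for GC content, whose median was 52.9% for complex I and 51.7% over all members. Under TMM the LPS median of complex I was 0.06 against 0.16 over all members in WT, and -0.13 against -0.01 under the KO label. With the GC correction these were 0.22 against 0.28 and 0.12 against 0.15. The part of GC content in the shares was not tested.

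**Figure D3:**
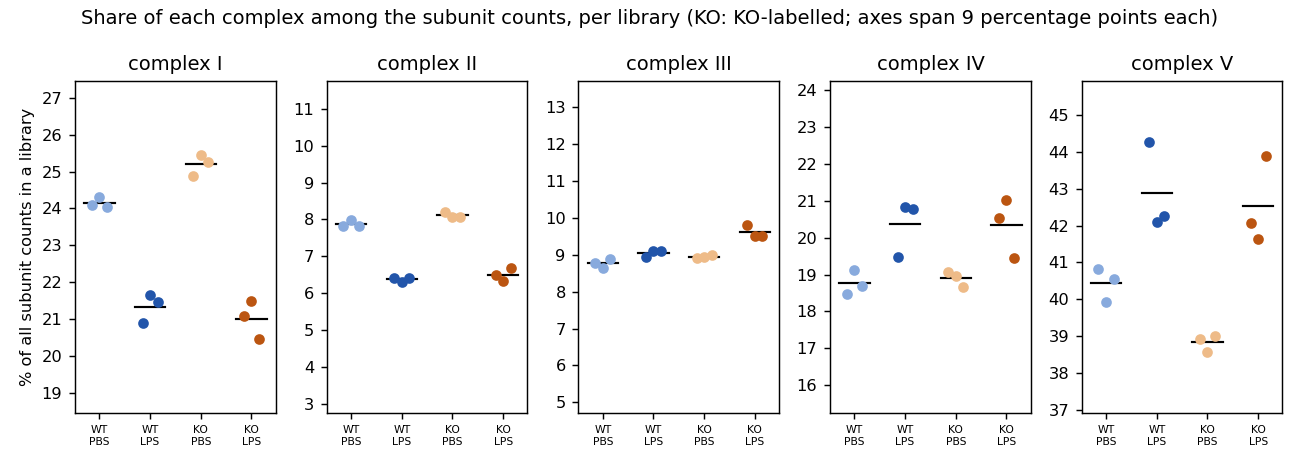
Share of each complex among the counts of all 84 members (y axis, percent; each axis spans 9 percentage points and does not start at 0) in each library, by group on the x axis, with lines at the means of 3. The shares of complexes I and II are lower in every LPS library than in any PBS library, for both labels, and those of complexes III, IV and V are higher within each label. Without Atp5b the mean share of complex V does not rise.

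Several subunits exist as alternative isoforms, and their shares within a family were compared per transcript length. The genes Atp5g1, Atp5g2 and Atp5g3 encode the same mature subunit c, the rotating ring of ATP synthase, with different import sequences. In WT, Atp5g3 went from 37.2% ± 1.32 of the family with PBS to 42.9% ± 0.972 with LPS, and Atp5g2 from 52.7% ± 1.31 to 47.9% ± 0.803 (SD, n = 3). KO-labelled libraries gave 36.8% ± 1.39 and 42.3% ± 2.38 for Atp5g3, and 53.2% ± 1.46 and 48.9% ± 1.44 for Atp5g2. In the edgeR test for LPS in WT, Atp5g3 was called higher (0.34 ± 0.0652, adjusted p = 0.000144), whereas Atp5g1 (0.02 ± 0.0751, adjusted p = 0.847) and Atp5g2 (0.00 ± 0.0623, adjusted p = 0.96) did not pass. The 3 were at -0.32, -0.65 and -0.66 with totals alone. In KO-labelled cells Atp5g3 was at 0.20 ± 0.066 (adjusted p = 0.0117), Atp5g1 at -0.18 ± 0.0765 (0.0428) and Atp5g2 at -0.12 ± 0.0629 (0.0851). The broadly expressed isoforms made up nearly the whole of the complex IV families in every group, with Cox4i2 between 0 and 1 count per library and Cox6a2 at 0.598% to 1.28% of its pair with Cox6a1. Cox7a1 was at 1.21% to 2.61% of its pair with Cox7a2.

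The muscle isoform Cox6a2 was called in 1 contrast, in which skeletal muscle markers moved as well. Cox6a2 had 47, 42 and 24 counts in WT PBS, 21, 29 and 30 in WT LPS, 60, 59 and 47 in KO-labelled PBS and 20, 20 and 16 in KO-labelled LPS libraries, and fell with LPS under the KO label (log2 fold change -0.76 ± 0.25 (SE), adjusted p = 0.0119). The 12 skeletal muscle markers summed to 26.6 to 33.6 CPM in WT PBS, 38.8 to 45.6 in WT LPS, 5.14 to 30.1 in KO-labelled PBS and 1.96 to 2.61 CPM in KO-labelled LPS libraries, and all 12 were lower in KO-labelled than in WT LPS libraries. The defining markers Myh4 and Tnnt3 were at 0 counts in KO PBS replicate 3 and in all KO LPS libraries. In that PBS library, where Acta1 had 1 count, Cox6a2 still had 47 counts. The part of muscle RNA in the Cox6a2 counts was not tested.

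The widest shift concerned Ndufa4 and its paralogue. Ndufa4, counted here with complex I by its name and now assigned to complex IV, was at 54, 62 and 57.9 CPM in WT PBS and 48.8, 66.7 and 64 CPM in WT LPS libraries. These overlapped (log2 fold change 0.05 ± 0.11 (SE), adjusted p = 0.702, -0.61 with totals alone). AA467197, the mouse gene for a protein known to take the place of Ndufa4 in complex IV during inflammation, is no member by name and was on a list of subunits outside the rule. It had 63, 60 and 70 counts in WT PBS and 8713, 12878 and 13349 counts in WT LPS libraries, and 50, 67 and 56 and 15138, 15268 and 11475 counts in KO-labelled PBS and LPS libraries. It rose by 8.16 ± 0.212 in WT (adjusted p = 1.03e-12) and 8.72 ± 0.217 in KO-labelled cells (5.58e-13) on the log2 scale, a rise that is 7.5 and 7.92 with totals alone. Per length, Ndufa4 was 97% ± 0.351 of the family with PBS and 10.6% ± 0.609 with LPS in WT, and 97.2% ± 0.41 and 7.61% ± 0.29 in KO-labelled libraries. The hypoxia-linked paralogue Ndufa4l2 had at most 1 count in any library.

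Promoter sequences were examined because many of these genes are known targets of the transcription factor NRF-1. RefSeq promoters (250 bases before to 50 after the start, GRCm38.p6) were found for 67 of the 84 members. The core of the NRF-1 palindrome, GCGCATGCG on either strand (its other strand reads CGCATGCGC), was in 8 of the 67 (11.9%) and in 405 of 13252 promoters of all genes (3.06%). The ETS motif CCGGAAGT, read by factors such as GABPA, was in 5 (7.46%) and in 6.76% of all promoters. Either motif was in 12 (17.9%) and 9.49%. The 8 windows with the NRF-1 core are shown 5' to 3' on the gene's strand, with the match in capitals.
Atp5g2 promoter, chr15:102671071-102671099, minus strand: ggctccggccGCGCATGCGcagagccttc
Atp5k promoter, chr5:108434431-108434459, minus strand: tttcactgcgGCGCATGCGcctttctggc
Atp5l promoter, chr9:44920965-44920992, minus strand: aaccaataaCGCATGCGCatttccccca
Cox6a1 promoter, chr5:115349102-115349130, minus strand: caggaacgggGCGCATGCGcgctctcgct
Ndufa11 promoter, chr17:56717692-56717720, plus strand: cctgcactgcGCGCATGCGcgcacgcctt
Ndufa8 promoter, chr2:36049329-36049357, minus strand: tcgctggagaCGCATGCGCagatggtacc
Uqcr11 promoter, chr10:80406808-80406836, minus strand: atcgccttcaCGCATGCGCtatacgtctg
Uqcrc1 promoter, chr9:108936668-108936696, plus strand: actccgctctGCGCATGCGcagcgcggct

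The genes behind these windows did not share a direction relative to the typical gene, whereas with totals alone all 8 were negative. With LPS in WT, Cox6a1 (0.49), Uqcrc1 (0.31) and Atp5l (0.28) were called higher under TMM (with totals alone -0.17, -0.35 and -0.38). Ndufa8 (-0.18), Uqcr11 (-0.03), Ndufa11 (0.20), Atp5g2 (0.00) and Atp5k (0.06) did not pass. In KO-labelled cells Ndufa8 (-0.43, adjusted p = 0.000289) and Uqcr11 (-0.39, adjusted p = 0.0022) were called lower, and Cox6a1 (0.35, adjusted p = 0.000271) and Uqcrc1 (0.28, adjusted p = 0.00151) higher under TMM. A match of letters is a description of the window and not a bound site.

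KO-labelled and WT macrophages were then compared without LPS. The subunits differed little. In edgeR, 6 of 80 members (7.5%) were lower in KO-labelled PBS libraries, against 13.0% of all genes tested, and none was higher, against 12.3% of all genes (1 member had an unadjusted p under 0.05 in the higher direction, and DESeq2 called none). The share of lower members was below the background. In the same contrast 2 of 8 macrophage markers and 1 of 4 mesothelium markers were lower and 1 of 2 tested neutrophil markers was higher, and the skeletal muscle sum was 5.14 CPM in KO PBS replicate 3 against up to 30.1 CPM in its group. Their part in the result was not tested. Of the 6, 4 belong to ATP synthase. Cox5a was at 70.4, 76.3 and 70.6 CPM in WT and 57.5, 54.7 and 55.4 CPM in KO-labelled PBS libraries, without overlap (log2 fold change -0.37 ± 0.06 (SE), adjusted p = 0.000252). Atp5b was at 498, 498 and 505 and 412, 433 and 426 CPM (log2 fold change -0.24 ± 0.05 (SE), adjusted p = 0.00211), also without overlap. The others were Atp5d, a subunit of the central stalk (-0.20 ± 0.0671, adjusted p = 0.0361), Atp5g3 (-0.19 ± 0.0649, 0.0378), Atp5a1 (-0.19 ± 0.0489, 0.0101) and Ndufa10 (-0.18 ± 0.06, 0.0334). The number of lower members was 3 with totals alone, 3 with the GC correction and 10 without the pair of LPS libraries that stood apart, which share the estimate of the spread. The matching shares of all genes were 10.3%, 11.4% and 18%. A fit of the PBS libraries alone called 13 lower (16.2%, against 20.2% of all genes). Leaving out KO PBS replicate 1, KO PBS replicate 2 or WT PBS replicate 1 gave 2 (2.5%), against 7.52%, 8.42% and 7.77% of all genes. Leaving out KO PBS replicate 3 or WT PBS replicate 2 gave 3 (3.75%), against 9.6% and 9.76%. A higher member (1) appeared when replicate 1 of either WT group was left out. The log2 fold changes of the 4 Sdh genes lay between -0.08 and 0.04, and no Sdh gene passed. In the share of all member counts, complex V held 40.8, 39.9 and 40.6% in WT and 38.9, 38.6 and 39% in KO-labelled PBS libraries, without overlap.

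With LPS, the same comparison gave more differences, nearly all in 1 direction. In edgeR, 31 of 80 members (38.8%) were lower in KO-labelled than in WT LPS libraries, against 19.3% of all genes tested, and 1 (1.25%) was higher, against 22.1%. The median log2 fold change was -0.19 over the members and 0.00 over all genes. Lower calls were made for 15 of 37 members of complex I (median -0.22), 2 of 4 of complex II (-0.18), 2 of 8 of complex III (-0.13), 3 of 14 of complex IV (-0.14) and 9 of 17 of complex V (-0.18). Without the pair of libraries that stood apart, 34 members were lower (28 of them the same, background 17.3%). With totals alone 43 were lower (53.8%, against 26.1% of all genes) and with upper-quartile scaling 41 (51.2%, against 24.2%). A fit of the LPS libraries alone called 19 of 78 (24.4%, against 16.7%). The higher call was lost when KO LPS replicate 2 or WT LPS replicate 3 was left out. The count moved with GC content as well. Across 79 members, the log2 fold change had a Spearman correlation of -0.46 with transcript GC content, and across 11886 genes of -0.37. These are across genes of the same libraries, and genes are not independent replicates. With the GC trend of each library removed, 14 members were lower (11 of them among the 31), against 16.6% of all genes, so that the members' share of 17.5% was near the background. Whether GC content or the genotype label carries the difference was not tested. In the same contrast all 12 skeletal muscle markers were lower (summed CPM 38.8 to 45.6 in WT and 1.96 to 2.61 in KO-labelled LPS libraries, with Myh4 and Tnnt3 at 0 in the latter). Of the 8 macrophage markers 4 were lower, and both tested neutrophil markers were higher (summed CPM 11.4 to 13.9 and 13.4 to 21.1). Their part in the result was not tested.

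**Figure D4:**
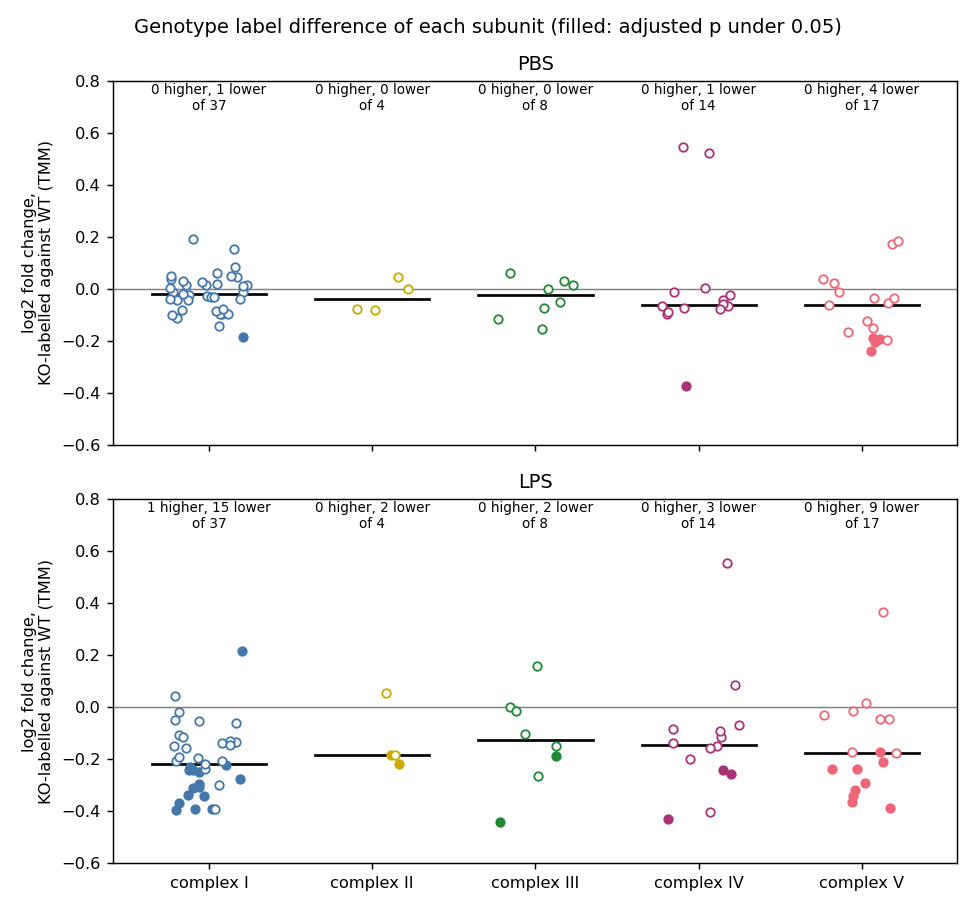
Log2 fold change of KO-labelled against WT macrophages (y axis, TMM scaling) for the 80 tested members by complex on the x axis, with PBS (top) and LPS (bottom). Each point is a gene, filled where the adjusted p is under 0.05, and bars are medians, which lie between -0.06 and -0.02 with PBS and between -0.22 and -0.13 with LPS. With the GC correction the overall LPS median is -0.11.

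Uqcr11, a small subunit of complex III, had the largest difference between the labels with LPS among called members of at least 5 CPM. It was at 28.7, 33.9 and 35.1 CPM in WT and 25.9, 26.4 and 19.5 CPM in KO-labelled LPS libraries, without overlap (log2 fold change -0.44 ± 0.11 (SE), adjusted p = 0.00303), and at -0.23 (adjusted p = 0.139) with the GC correction. Cox5a was at 99.3, 107 and 108 and 76, 81 and 75.7 CPM (log2 fold change -0.43 ± 0.06 (SE), adjusted p = 3.23e-05), as it had been lower with PBS, and stayed at -0.44 (adjusted p = 2.08e-05) with the GC correction. Ndufv3 was at 22.3, 25.9 and 22.7 and 18.2, 19.7 and 16 CPM (log2 fold change -0.40 ± 0.09 (SE), adjusted p = 0.00194), and at -0.21 (adjusted p = 0.0927) with the correction. None of these 3 overlapped. Ndufb11 (-0.39 ± 0.0836, adjusted p = 0.00136), Ndufa8 (-0.39 ± 0.0918, 0.00274) and Atp5g1 (-0.39 ± 0.0773, 0.000769) followed, at -0.26 (0.0242), -0.24 (0.0582) and -0.28 (0.00902) after the GC correction. The exception in the other direction was Ndufs1, at 30.8, 32.4 and 30.8 CPM in WT and 36.1, 37.8 and 35.1 CPM in KO-labelled LPS libraries (log2 fold change 0.21 ± 0.07 (SE), adjusted p = 0.0204). Its transcript has a GC content of 45.1%, near the low end of the members, and it was at 0.09 (adjusted p = 0.316) with the correction. The 3 genes for subunit c were all called lower under TMM, and Atp5g2 did not pass with the GC correction (-0.11, adjusted p = 0.245). Of the Sdh genes, Sdha (-0.18 ± 0.0534, adjusted p = 0.0116) and Sdhc (-0.22 ± 0.0752, adjusted p = 0.027) passed. Both were also called lower with the GC correction.

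**Figure D5:**
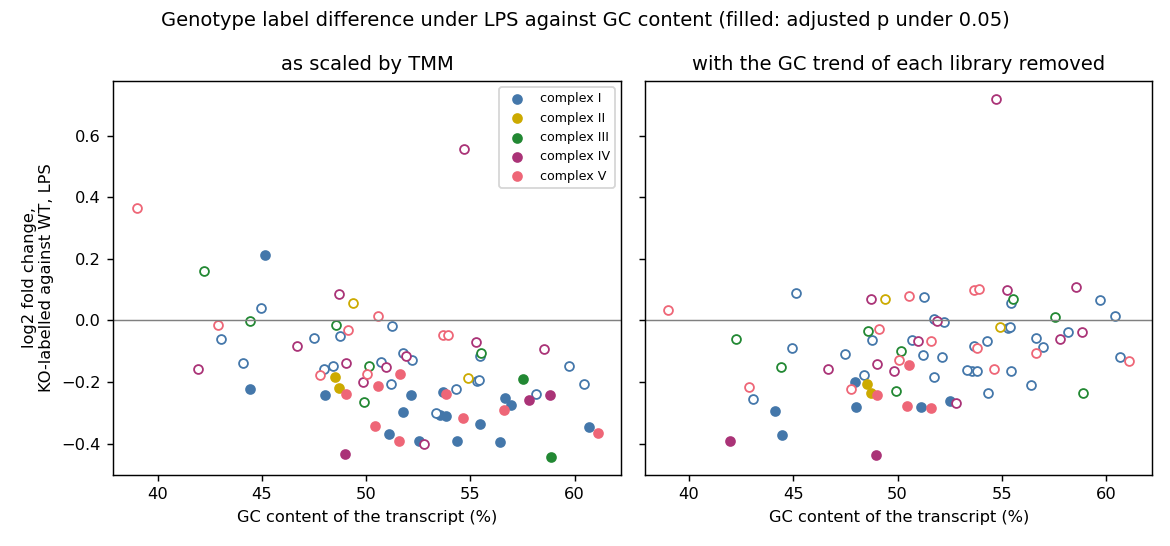
Log2 fold change of KO-labelled against WT LPS libraries (y axis) against transcript GC content in percent (x axis) for 79 tested members with a known transcript, under TMM scaling (left) and with the GC trend of each library removed (right). Points are genes coloured by complex and filled where the adjusted p is under 0.05. The Spearman correlation is -0.46 on the left and 0.36 on the right.

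Whether the LPS difference itself depended on the label was tested with the interaction term, the log2 fold change with LPS in KO-labelled minus that in WT cells. In edgeR, 4 of 80 members (5%) had a more negative LPS difference under the KO label, against 8.26% of all genes tested, and none a more positive one, against 9.78% (none at an unadjusted p under 0.05, and none in DESeq2). The share of 4 in 80 was below the background. With totals alone it was above it, with 20 of 80 (25%) against 16.1% of all genes. All 4 belong to complex I. They were Ndufv3 (-0.40 ± 0.117, adjusted p = 0.0269), Ndufs7 (-0.40 ± 0.111, 0.0211), Ndufb11 (-0.38 ± 0.114, 0.0306) and Ndufb10 (-0.37 ± 0.0974, 0.0158). Ndufb11 had 42.9, 48.8 and 47.2 CPM in WT PBS, 39.9, 43.1 and 46.2 in WT LPS, 43.1, 46.2 and 48.4 in KO-labelled PBS and 33, 35.8 and 29.6 CPM in KO-labelled LPS libraries. Its KO-labelled LPS libraries thus lay below all the others. Without the pair of libraries that stood apart there were 10 (12.5%), all 4 among them, which was also above the background of 9.21%. The count was 14 without WT LPS replicate 1 (17.5%, against 9.26% of all genes) and 9 without KO LPS replicate 2 (11.2%, against 7.78%), both above the background. It was 2 without WT PBS replicate 3, WT LPS replicate 3 or KO PBS replicate 2, taken singly, against 5.76%, 6.59% and 6.79% of all genes. Leaving out KO LPS replicate 1 or KO LPS replicate 3 gave 1, against 5.51% and 7.2%. DESeq2 called 7 (8.33%, against 6.71%). In the interaction 5 of 12 skeletal muscle markers were lower, and of the macrophage markers 3 of 8 were lower and 1 higher. Their part in the result was not tested. The interaction had a Spearman correlation of -0.54 with GC content across 79 members (-0.21 across 11886 genes), and with the GC correction 1 member passed, Ndufb10 at -0.28 (adjusted p = 0.05, just inside the threshold), against 8.49% of all genes. The GC content of the transcript is 60.7% for Ndufs7, 56.4% for Ndufv3, 55.5% for Ndufb10 and 52.5% for Ndufb11, against a median of 51.7% over the members.

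The assembly factors of the complexes were counted from lists of other genes of the pathway. With LPS in WT, 10 of 17 tested complex I assembly factors were lower and 4 higher in edgeR. Over all genes tested, 40.2% were lower and 36.5% higher, the background for the other WT counts of assembly factors too. Ndufaf7 fell the most (-1.97 ± 0.119, adjusted p = 1.19e-10) and Foxred1 rose the most (0.58 ± 0.0843, 9.08e-06). Of 4 complex II factors 2 were lower, led by Sdhaf1 (-1.79 ± 0.131, adjusted p = 1.49e-09), which serves the iron-sulfur subunit Sdhb. Of 6 complex III factors 4 were lower, led by Lyrm7 (-1.76 ± 0.53, adjusted p = 0.00639), a chaperone of Uqcrfs1. Lyrm7 had 23, 12 and 20 counts with PBS and 6, 0 and 4 with LPS, the latter near the floor of 3. Complex IV factors were split, with 8 of 21 higher and 7 lower. Sco1, a copper chaperone of complex IV, had 7.09, 7.83 and 7.83 CPM with PBS and 66.5, 79.8 and 69.5 CPM with LPS (log2 fold change 3.24 ± 0.09 (SE), adjusted p = 2.44e-15, 2.58 with totals alone). Coa4 was at the other end (-1.20 ± 0.113, adjusted p = 4.83e-08). For complex V, 3 of 4 factors were lower, led by Atpaf1 (-1.01 ± 0.13, adjusted p = 2.14e-06), and Tmem70 was higher (0.30 ± 0.123, 0.035). In KO-labelled cells, where 41.1% of all genes were lower and 38.8% higher, the same lists gave 10 lower and 2 higher for complex I, 2 and 1 for complex II, 7 higher and 9 lower for complex IV, and 3 lower and 1 higher for complex V, and 4 of the 6 complex III factors were lower. With totals alone Foxred1 was at -0.08 and Tmem70 at -0.36 in WT.

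Of a list of electron carriers and entry enzymes, which also holds the uncoupling protein Ucp2 of the inner membrane, 4 of 9 were higher and 4 lower with LPS in WT (all genes 36.5% and 40.2%), and 4 and 5 in KO-labelled cells (38.8% and 41.1%). With so few genes these counts are near the background. Ucp2, named after its values were seen, differed with LPS by -0.16 ± 0.0856 in WT (adjusted p = 0.0978) and was called lower under the KO label (-0.52 ± 0.086, adjusted p = 3.51e-05). Gpd2, the mitochondrial glycerol 3-phosphate dehydrogenase, had 31.2, 29.7 and 29.9 CPM with PBS and 202, 189.6 and 189.5 CPM with LPS (log2 fold change 2.68 ± 0.06 (SE), adjusted p = 4.88e-16, 2.01 with totals alone). Cytochrome c itself, Cycs, was at 59.1, 66.7 and 63.5 and 200.4, 299 and 288 CPM (log2 fold change 2.06 ± 0.13 (SE), adjusted p = 3.33e-09, 1.40 with totals alone) and was named after its values were seen. Dhodh, which passes electrons from pyrimidine synthesis, fell the most (-0.98 ± 0.147, adjusted p = 1.19e-05). Neither Gpd2 nor Cycs overlapped between PBS and LPS, and both differences exceed any of the 80 members. Of the subunits that the name rule misses, 3 of 5 were higher, AA467197, Cyc1 (0.37 ± 0.0592) and Usmg5 (0.68 ± 0.153), the last 2 at -0.29 and 0.02 with totals alone.

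Of 12 regulators of mitochondrial biogenesis, 7 were higher and 3 lower with LPS in WT (all genes 36.5% and 40.2%), and 6 and 4 in KO-labelled cells (38.8% and 41.1%). Gabpb1, a partner of the ETS factor GABPA, rose the most in WT (1.3 ± 0.0943, adjusted p = 1.45e-09, 0.64 with totals alone) and Ppargc1a, the coactivator PGC-1alpha, fell the most (-1.47 ± 0.494, adjusted p = 0.0126), at 12, 15 and 18 counts with PBS and 4, 2 and 4 with LPS, the latter close to the floor of 3. Of 21 genes for mitochondrial import and carriers, 9 were higher and 4 lower in WT and 10 and 7 in KO-labelled cells, against the same shares of all genes, with Timm23 (1.00 ± 0.08, adjusted p = 5.54e-09, 0.34 with totals alone) and Timm9 (-1.3 ± 0.197, adjusted p = 1.5e-05) at the ends in WT. Between KO-labelled and WT cells with LPS, where 22.1% of all genes were higher and 19.3% lower, the lists gave 3 of 17 complex I factors lower, 2 of 6 complex III factors lower and 1 higher, 2 of 21 complex IV factors lower and 1 higher, 1 of 4 complex V factors lower, 1 of 5 subunits outside the rule lower, 3 of 9 carriers and entry enzymes lower and 1 higher, 5 of 12 regulators higher and 2 lower, and 6 of 21 import genes and carriers lower and 2 higher. With PBS, where 12.3% of all genes were higher and 13.0% lower, they gave 1 complex IV factor higher, 2 regulators higher and 5 import genes and carriers lower, among them the phosphate carrier Slc25a3 (-0.32 ± 0.0526, adjusted p = 0.000396) and the ADP/ATP carriers Slc25a4 (-0.37 ± 0.0645, 0.000528) and Slc25a5 (-0.28 ± 0.0626, 0.00367), which supply ATP synthase. These 3 were named after their values were seen.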

How the data were processed

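Peritoneal macrophage RNA was sequenced by the authors as single-end reads on a BGISEQ instrument, in 12 libraries of 4 groups. The deposited values are expected counts per gene, 1 table per library. The submitters' processing notes name Bowtie2, RSEM 1.3.1 and GRCm38.p6, whereas the paper's methods name STAR and HTSeq. Expected counts were rounded, filtered by expression over the groups and scaled by TMM. A quasi-likelihood model with 1 mean per group was fitted to 12064 genes in edgeR 4.0.16 (R 4.3.3), with Benjamini-Hochberg adjustment over all of them at a threshold of 0.05. Replicate libraries of a typical gene varied by 6.99% beyond counting error (biological coefficient of variation). The procedure was tested on simulated counts.

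Members and gene lists were chosen with earlier results of these data known. In each contrast, the 6 called members with the largest rise and the 6 with the largest fall at a mean of at least 5 CPM were named, with the isoform families, the Sdh genes and the extremes of each list. Transcript length and GC content came from GENCODE transcripts matched by gene number (16408 of 16920 genes, 83 of 84 members). Protein-coding transcripts linked to RefSeq were preferred, and the median per gene was used. The GC correction subtracted a lowess curve (span 0.3) per library. Levels per kilobase used the same lengths. Alternatives were other scalings, filters, DESeq2 1.42.0, a replicate block, fits of the compared libraries alone, and leaving out libraries. Promoters came from RefSeq tables. Intervals from counts cover counting error only.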

Additional observations from a re-analysis of the deposited data

Results flagged for a closer look

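The LPS difference depended on the label for 4 subunits, by the interaction term of the edgeR fit, the difference under the KO label minus that in WT. It was -0.40 for Ndufs7, -0.40 for Ndufv3, -0.38 for Ndufb11 and -0.37 for Ndufb10, with adjusted p of 0.0211, 0.0269, 0.0306 and 0.0158 over all genes tested. All 4 were at lower CPM in KO-labelled LPS libraries than in WT LPS libraries, and with the GC correction Ndufb10 alone passed. The 4 are 5% of the 80 members, against 8.26% of all genes. The count was 1 without KO LPS replicate 1 or KO LPS replicate 3, and 2 without WT PBS replicate 3, WT LPS replicate 3 or KO PBS replicate 2. It was 14 (17.5%) without WT LPS replicate 1, 9 (11.2%) without KO LPS replicate 2, 10 (12.5%) without the pair of libraries that stood apart and 20 (25%) with totals alone, where the shares of all genes were 9.26%, 7.78%, 9.21% and 16.1%, so that in these 4 fits the members' share was above the background.

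The same term was past the threshold for some genes of the wider lists, against 9.78% of all genes in the positive and 8.26% in the negative direction. Of 21 complex IV assembly factors 2 were positive and 1 negative, of 6 complex III factors 2 negative, of 12 regulators 1 positive and 1 negative, of 9 carriers and entry enzymes 1 positive, and of 21 import genes and carriers 1 negative. Sco1, the copper chaperone, rose under both labels, and the difference was -0.60 (adjusted p = 0.00367). Sqor, the sulfide quinone oxidoreductase, rose more under the KO label (difference 0.53, adjusted p = 0.0017). Ppargc1b, a coactivator of mitochondrial biogenesis, differed by -1.45 (adjusted p = 0.000142), with 0.33 in WT and -1.12 in KO-labelled cells. Bcs1l, which inserts the Rieske protein into complex III, differed by -1.12 (adjusted p = 0.00265). Ythdf1 itself differed by -0.42, with higher counts under the KO label with PBS. Their causes were not tested.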

How the results depend on the processing

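Of 2627 alternative fits of the 121 single-gene results, 2321 kept the direction and the side of the threshold, 87 changed sign with no call in either fit, 116 lost the call, 64 gained one and 39 changed sign with a call. Scaling moved the LPS counts most. Upper-quartile scaling gave 5 members higher and 30 lower in WT and 2 and 54 under the KO label, and totals alone gave 0 and 71 in WT and 0 and 77 under the KO label. The GC correction gave 5 lower in WT and 12 under the KO label. For the KO label against WT with PBS, 3 members were lower with relative log expression (RLE) scaling in edgeR (3.75%, against 11.7% of all genes). DESeq2 called 5 lower (5.95%, against 7.79%). The count was 3 with totals alone, 3 with the GC correction and 13 with only the libraries compared in the fit (16.2%, against 20.2% of all genes). It was 10 without the pair of divergent LPS libraries, an alternative chosen after seeing the data, and the last 2 fits gave 1 higher each. With LPS, the 1 higher member was 0 under upper-quartile scaling, totals alone, only the libraries compared and the GC correction, and the members lower were 19 with only the libraries compared and 14 with the GC correction. The interaction had 20 lower with totals alone, 7 with DESeq2 (8.33%, against 6.71%), 1 with the GC correction and 10 without the divergent pair. The scalings and the fits differ by construction, and beyond that the cause was not tested.

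With totals alone the log2 fold change with LPS in WT was Ndufs4 -0.0085, Uqcrfs1 -0.0659, Atp5b -0.0745, Cox5a -0.13, Cox6a1 -0.17, Cox7a2 -0.19, Cox4i1 -0.39, Cox6b1 -0.27, Cox8a -0.26, Ndufa4 -0.61, Atp5g1 -0.65, Atp5g2 -0.66, Atp5g3 -0.32 and Sdhc -0.50, and under the KO label it was Atp5b -0.15, Ndufs4 -0.16, Uqcrfs1 -0.17, Cox6c -0.32, Cox5a -0.33, Uqcrb -0.35, Cox4i1 -0.72, Cox6a1 -0.45, Cox6b1 -0.52, Cox7a2 -0.35, Cox8a -0.49, Ndufa4 -0.79, Atp5g3 -0.60 and Sdhc -0.78. With upper-quartile scaling it was Cox4i1 -0.0401, Atp5g1 -0.29 and Atp5g2 -0.31 in WT, and Cox4i1 -0.28, Cox6a1 -0.0089, Cox6b1 -0.074, Cox8a -0.0474, Ndufa4 -0.35, Atp5g3 -0.16 and Sdhc -0.33 under the KO label. With the GC correction Atp5g1 was at 0.0123 under the KO label. All of these have the other sign in the TMM fit.

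Leaving out 1 library at a time gave 20 to 40 members higher and 8 to 11 lower with LPS in WT, 15 to 25 and 16 to 25 under the KO label, 0 to 1 and 2 to 9 for the label with PBS, 0 to 1 and 21 to 44 for the label with LPS, and 0 to 0 and 1 to 14 for the interaction. The shares of all genes in these fits were 34.6% to 37.2% and 37.7% to 40.0%, 37.1% to 39.5% and 38.9% to 41.3%, 8.68% to 15.5% and 7.52% to 16.3%, 18.3% to 22.6% and 15.2% to 18.8%, and 6.04% to 12.7% and 5.51% to 9.26%. The members' share stayed on the same side of the background in all 12 fits, except for members higher with LPS in WT (8 of 12) and lower for the interaction (10 of 12). Same-numbered libraries did not deviate together (18 correlations from -0.076 to 0.127), so the numbers were not taken as pairs. With the replicate block the counts were 34 higher and 11 lower with LPS in WT (36.6% and 40.2% of all genes). Under the KO label they were 22 and 22 (38.9% and 41.0%). For the label, 7 were lower with PBS (8.75%, against 12.7% of all genes) and 36 with LPS (45.0%, against 19.4%). The interaction had 5 lower (6.25%, against 7.97%), and 4 single genes gained a call. At this depth the 4 untested isoforms were not detectable above 3 counts.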
